A study of Mus musculus with 21 samples.

Results

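The genes described here are 36 named genes of glycolysis and of the response to low oxygen, chosen by symbol from a list of glycolytic enzymes and targets of hypoxia-inducible factor (HIF). All 36 had an entry in the deposited count table of 24062 genes, and 35 passed the filter on low counts and were tested. The exception, Eno1, had at most 5 counts in any library. Expression was measured by RNA sequencing of ribosome-depleted total RNA from mouse colon, in 21 libraries that form 7 groups of 3. All animals had the C57BL/6 background and were either wild-type or carried the App NL-G-F knock-in, a set of Alzheimer's disease-related mutations in the amyloid precursor protein gene. Normal colon and tumour were sampled in wild-type males, knock-in males and wild-type females, and the last of the 7 groups was normal colon of knock-in females. Tumours arose under AOM/DSS, a regime of the carcinogen azoxymethane with dextran sulfate sodium, an irritant of the colon mucosa. The labels give the normal libraries as non-treatment, while the series text describes normal tissue beside tumours or normal colon of mice without tumours. A tumour group of knock-in females was not analysed here, and ages are not in the labels. The labels do not say that the libraries of a group came from separate animals, so the p-values measure the spread between these libraries, which may be partly technical.

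Glycolysis splits glucose into pyruvate in the cytosol, with hexokinase, phosphofructokinase and pyruvate kinase as its controlled steps. Lactate dehydrogenase turns pyruvate into lactate, which leaves the cell with a proton through a monocarboxylate transporter, while pyruvate dehydrogenase sends pyruvate into mitochondria. When oxygen is scarce, the prolyl hydroxylases of the EGLN family no longer mark HIF-1α for degradation, and HIF binds a short DNA core next to many glycolytic genes. The colon epithelium lives beside an almost oxygen-free lumen and takes much of its energy from microbial short-chain fatty acids, and tumours are known for high glucose use.

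The promoters of 5 members are shown because they belong to genes that moved in the same direction in several tumour comparisons, described in the following paragraphs. They are RefSeq windows on GRCm38.p6 that run from 250 bases before to 50 bases after the annotated start, read 5′ to 3′ on the strand of the gene. Capitals mark the letters ACGTG or GCGTG, or their reverse complements CACGT and CACGC, which are the usual core letters of a HIF binding site. Both motifs were searched on both strands, and neighbouring matches may overlap. The windows are Slc16a3 at chr11:120948817-120949116 on the plus strand, P4ha2 at chr11:54100674-54100973 on the plus strand, Mif at chr10:75860228-75860527 on the minus strand, Pfkfb4 at chr9:108991652-108991951 on the plus strand and the first listed start of Hk1 at chr10:62379859-62380158 on the minus strand.
Slc16a3: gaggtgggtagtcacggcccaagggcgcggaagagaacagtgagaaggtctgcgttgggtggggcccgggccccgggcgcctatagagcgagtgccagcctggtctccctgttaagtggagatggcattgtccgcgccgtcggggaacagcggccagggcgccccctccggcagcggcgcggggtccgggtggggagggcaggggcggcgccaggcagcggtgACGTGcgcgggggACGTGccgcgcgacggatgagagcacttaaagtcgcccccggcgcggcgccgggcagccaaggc
P4ha2: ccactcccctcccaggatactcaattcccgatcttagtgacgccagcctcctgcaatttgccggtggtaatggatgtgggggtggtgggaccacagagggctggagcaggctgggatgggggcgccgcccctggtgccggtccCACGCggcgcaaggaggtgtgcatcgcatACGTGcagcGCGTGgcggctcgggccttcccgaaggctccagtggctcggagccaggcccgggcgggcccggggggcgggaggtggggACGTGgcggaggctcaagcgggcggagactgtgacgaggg
Mif: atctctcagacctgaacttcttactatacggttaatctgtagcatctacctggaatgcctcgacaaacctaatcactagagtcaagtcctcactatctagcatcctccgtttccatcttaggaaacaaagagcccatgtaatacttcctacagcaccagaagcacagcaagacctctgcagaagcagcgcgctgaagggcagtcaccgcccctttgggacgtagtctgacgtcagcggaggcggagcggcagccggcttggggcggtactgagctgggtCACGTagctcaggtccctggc
Pfkfb4: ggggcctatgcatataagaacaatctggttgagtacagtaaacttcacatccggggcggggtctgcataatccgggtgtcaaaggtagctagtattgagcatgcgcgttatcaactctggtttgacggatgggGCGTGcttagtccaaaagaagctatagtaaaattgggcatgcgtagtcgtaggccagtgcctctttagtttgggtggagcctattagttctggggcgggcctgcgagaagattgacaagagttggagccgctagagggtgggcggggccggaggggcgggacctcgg
Hk1: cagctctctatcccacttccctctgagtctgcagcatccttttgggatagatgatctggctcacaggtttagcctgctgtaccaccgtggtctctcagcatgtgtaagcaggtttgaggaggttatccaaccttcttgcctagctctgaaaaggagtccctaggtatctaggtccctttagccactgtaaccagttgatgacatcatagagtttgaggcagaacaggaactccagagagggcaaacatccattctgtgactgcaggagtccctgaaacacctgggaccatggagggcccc

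Of the 36 members, 33 had an entry in the RefSeq promoter table. At least 1 of the motifs stood in a listed promoter of 30 of these 33 genes (90.9%), against 46.7% of all 27025 genes of the table. ACGTG was present for 66.7% of the members against 21.8% of all genes, and GCGTG for 66.7% against 35.2%. Counted by promoter rather than by gene, 79.2% of the 48 member promoters held a motif against 43.8% of all 32851. The member promoters were also richer in G and C, with a median of 61.8% against 52.7%. The windows of genes that were higher in tumours (Slc16a3, P4ha2, Mif) and of 1 that was lower (Pfkfb4) all held a match. With a match in 30 of 33 members, these windows cannot show whether a match goes with a direction. The first listed Hk1 window held none, while the other listed one, at chr10:62340372-62340671, held 2 matches of ACGTG and 3 of GCGTG. A match is only a run of letters, and binding of HIF was not measured. The members were picked in part as HIF targets, so their motif shares are no independent finding.

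Across the 35 tested members each tumour comparison held both rises and falls, and falls were more frequent than rises in wild-type females. In wild-type males 8 members were higher and 5 lower in tumours than in normal colon at an adjusted p under 0.05 (quasi-likelihood test of edgeR, Benjamini-Hochberg adjustment over all genes, the rule for "called" throughout), which is 37.1% of the members. Of all 15936 genes tested in that comparison 35.7% were called, so the members' share lay near the background. By direction, 22.9% of the members rose against 16.5% of all genes, and 14.3% fell against 19.3%. Knock-in males had 1 member higher (2.86%) and 4 lower (11.4%), together 14.3%. Of all genes 20.4% were called there, 10.4% higher and 9.97% lower. In wild-type females 6 were higher (17.1%) and 13 lower (37.1%), together 54.3%. Of all genes 49.1% were called there, 25% higher and 24% lower. The median log2 difference of the members was 0.01 in wild-type males, -0.37 in wild-type females and 0.09 in knock-in males, where the medians of all genes were 0.01, 0.01 and 0.01. No member was called with opposite signs in any pair of these comparisons.

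The genes that were higher in tumours of both wild-type sexes were Slc16a3, Ndrg1, P4ha2 and Mif, and none of the 35 was higher in all 3 tumour comparisons. Hk1, Pfkp and Pfkfb4 were lower in all 3. Gpi1 and Pdk1 were lower in both wild-type comparisons and not called in knock-in males. A further 10 members were called in none of the 3 comparisons, among them both glucose transporters, Slc2a1 and Slc2a3, the hexokinase Hk2 and the phosphoglycerate kinase Pgk1. Some of these passed under alternatives to this main fit. In wild-type females Slc2a1 and Pfkl were lower with other groups left out of the fit (adjusted p = 0.0123 and 0.0171). Offsets for GC content and length gave 0.0229 and 0.00783. Pfkm, Egln1 and Pgam1 also passed in a tumour comparison under an alternative. Outside the 10, Aldoa, P4ha1 and Ldhb did so in wild-type males, Pkm in knock-in males and Hif1a in wild-type females. The tumour comparison of knock-in males gave 3 calls without replicate 2 of the normal group, 1 without replicate 3 of the normal group and 2 without replicate 3 of the tumours. Of all genes 1657 were higher and 1589 lower in the full fit. In these fits the counts were 1311 and 1683, 640 and 752, and 1373 and 1116. The tumour comparison of wild-type males gave 8 without replicate 3 of the normal group. Of all genes 1448 were higher and 2211 lower there, against 2622 and 3075 in the full fit.

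**Figure D1:**
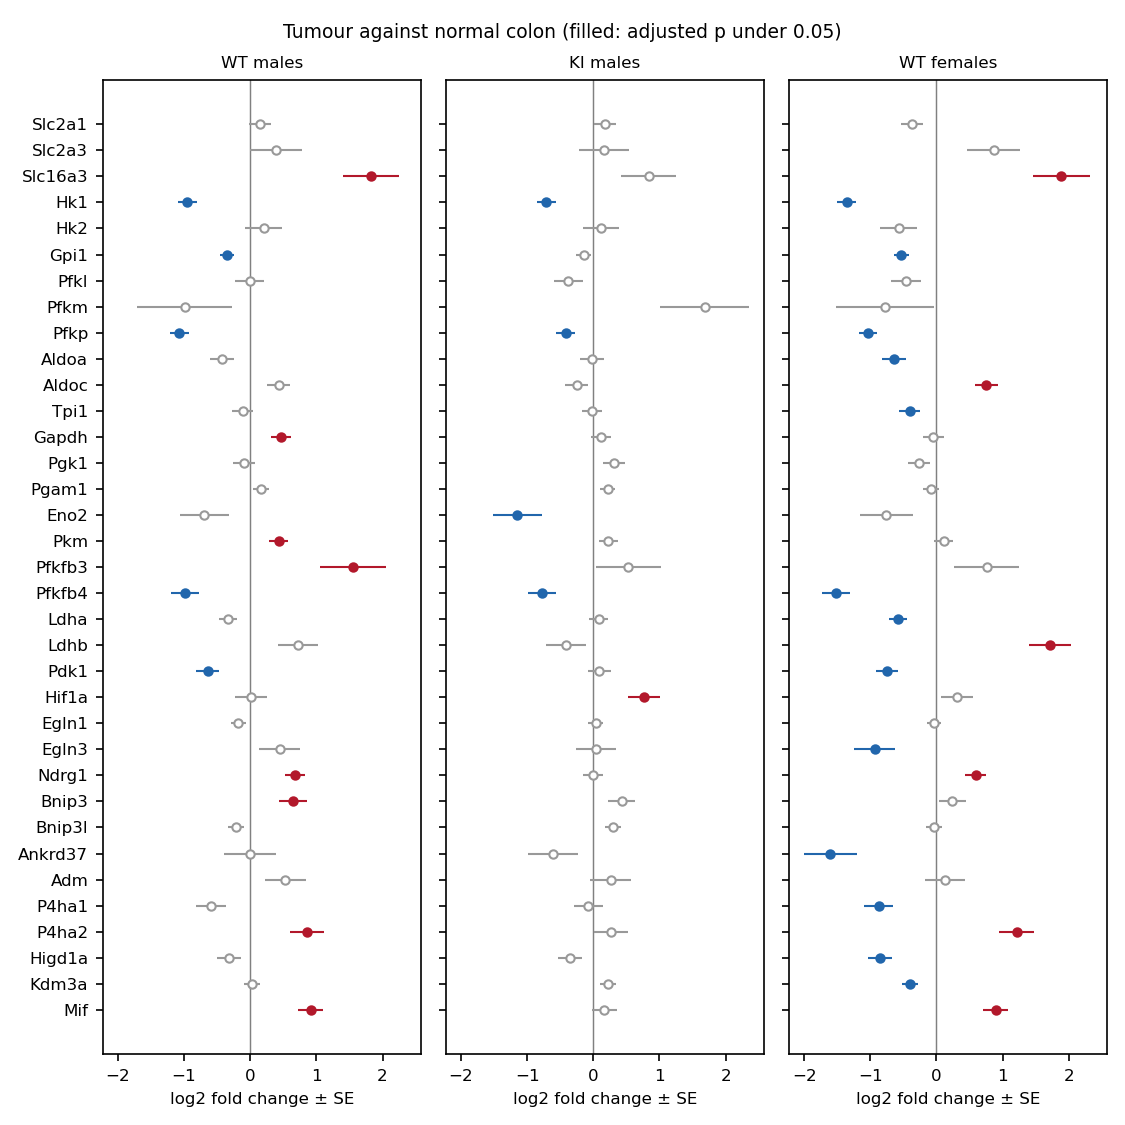
Log2 fold change of each of the 35 tested members in tumour against normal colon (x axis, points with SE bars) for wild-type (WT) males, knock-in (KI) males and WT females, 3 libraries a group. Red and blue filled points passed an adjusted p of 0.05 as higher and lower. Slc16a3, Ndrg1, P4ha2 and Mif are red in both WT panels, and Hk1, Pfkp and Pfkfb4 are blue in all 3 panels.

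The composition of the libraries differed between tumour and normal colon. The summed level of 8 smooth muscle genes was 2862 to 9728 CPM (counts scaled to library size) in wild-type male normal colon and 192 to 754 in the tumours, 4569 to 8287 and 888 to 1006 in knock-in males, and 1984 to 4593 and 176 to 212 in wild-type females, with none of the 8 at 0 in any library. The sum of 8 absorptive colonocyte genes was 1575 to 4067 and 435 to 558 CPM in wild-type males, 988 to 1709 and 516 to 1385 in knock-in males, and 2478 to 6653 and 320.3 to 474 in wild-type females. The 6 neutrophil genes summed to 1.89 to 24.9, 9.18 to 21.3 and 3.001 to 7.53 CPM in the 3 normal groups and to 33.1 to 65.2, 34.4 to 54.1 and 55.9 to 166 in the matching tumours. Up to 4 of them were at 0 in a library of normal colon. Each tumour group had a lower median sum of smooth muscle and colonocyte genes and a higher one of neutrophil genes than its normal group, and the smooth muscle and neutrophil sums did not overlap. The 8 general epithelial genes were detected in every library, at 7740.0 to 10250.0 and 6779 to 7189 CPM in wild-type male normal colon and tumours, 7585 to 8218 and 6935 to 8342 in knock-in males, and 9590.0 to 10540.0 and 5754 to 6907 in wild-type females. The sum of 6 proliferation genes was 593 to 703 and 840.2 to 949 CPM in wild-type males, 476 to 636 and 583 to 1275 in knock-in males, and 608 to 734 and 1046 to 1435 in wild-type females. The sums of 7 fibroblast genes did not overlap in wild-type females (1161 to 1409 and 1769 to 2845 CPM) and overlapped in both sets of males. Rn45s, a ribosomal RNA precursor, took 4.896 to 8.26% of counts in wild-type male normal colon and 9.302 to 13.1% in the tumours, and 2.84 to 3.18% and 7.96 to 9.998% in wild-type females, without overlap, and 6.59 to 14.1% and 6.95 to 8.23% in knock-in males. The highest share, 14.1%, was in knock-in male normal replicate 3. Without that library the knock-in tumour comparison went from 5 called members to 1. Calls over all genes also fell, from 1657 higher and 1589 lower to 640 and 752. In such bulk tissue fewer cells of a type and less RNA per cell cannot be told apart, and the part of these shifts in the results on the members was not tested. Library totals ran from 3414123 to 26174008 counts, the smallest being wild-type male tumour replicate 2. That library held the highest value of its group for 30 of the 35 members (85.7%), against 35.9% of all tested genes. Without it the wild-type male comparison called 11 members, 5 higher and 6 lower, and of all genes 2144 higher and 2654 lower. The labels number the libraries, and the 3 numbered 152 and above were knock-in male tumour replicate 3 and replicates 2 and 3 of the wild-type female tumours.

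Among the transporters, the largest difference was in Slc16a3, which encodes MCT4, the exporter of lactate. In CPM, the 3 wild-type male normal libraries held 38.1, 44.9 and 16.7 and the 3 tumours 90.7, 173 and 93.8. Every tumour was above every normal library, and tumour replicate 2 was the highest of all 21. The difference was 1.82 ± 0.42 on the log2 scale (SE, n = 3 and 3), a 3.54-fold rise with an adjusted p of 0.003597. In wild-type females normal colon held 23.2, 19.5 and 23.4 CPM and tumours 104, 60.9 and 80.5, again without overlap, and the difference was 1.89 ± 0.43 (adjusted p = 0.00176). In knock-in males normal colon held 34.95, 16.8 and 51.01 CPM and tumours 38.2, 71.3 and 73.995, and these groups overlapped. Their difference of 0.84 ± 0.42 did not pass (adjusted p = 0.157), and the test of whether the knock-in and wild-type differences were unequal gave -0.98 ± 0.59 (adjusted p = 0.3002).

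Slc2a1 encodes GLUT1, the widely expressed glucose importer, and lay at 121 to 214 CPM over all 21 libraries. Its tumour differences were 0.15 ± 0.17, 0.18 ± 0.16 and -0.37 ± 0.17 in wild-type males, knock-in males and wild-type females, none of which passed in the main fit. Slc2a3, the high-affinity importer GLUT3 of neurons and blood cells, was sparse at 1.39 to 7.06 CPM. Its differences of 0.39 ± 0.39, 0.16 ± 0.38 and 0.87 ± 0.40 did not pass. Per kilobase of exon, Slc2a3 made up 0.353 to 1.17% of the pair in wild-type female normal colon and at most 2.25% in any group.

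**Figure D2:**
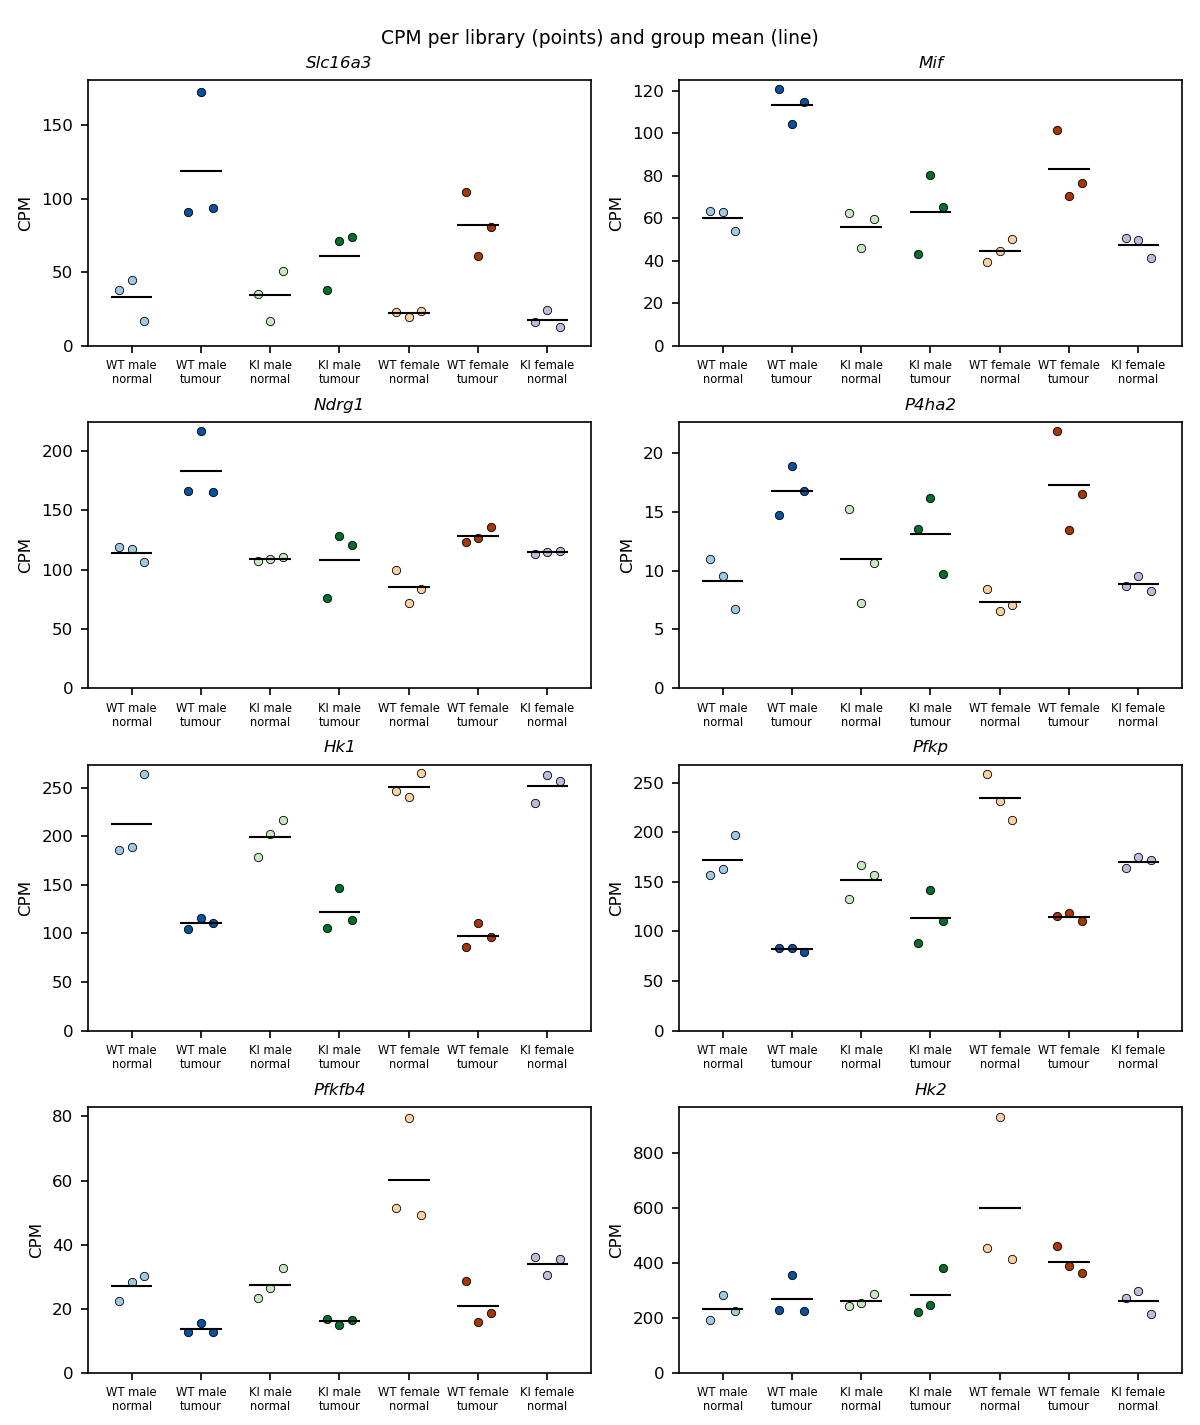
Level of 8 members in CPM (y axis, from 0) in each library (points) of the 7 groups, with the group mean as a line. Slc16a3, Mif, Ndrg1 and P4ha2 lie above normal colon in both WT tumour groups, Hk1 and Pfkfb4 lie below it in all 3 tumour groups, and Hk2 reaches its highest value, 932 CPM, in WT female normal colon.

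The upper enzymes, which take glucose to triose phosphates, were lower in tumours wherever they were called, with 1 exception. Of the 9 tested, 5 were lower in wild-type females, 3 in wild-type males and 2 in knock-in males. Of all genes 24%, 19.3% and 9.97% were lower in these comparisons. Aldoc in wild-type females was the only upper enzyme called higher. Hk1, the hexokinase found in most tissues, held 186, 189 and 264 CPM in wild-type male normal colon and 104, 116 and 110.4 in the tumours. Normal colon against tumours gave 179, 202 and 216 against 105, 146 and 114 in knock-in males, and 247, 241 and 264 against 85.8, 111 and 95.9 in wild-type females. All 9 tumours were below all 12 normal libraries. The differences were -0.95 ± 0.14 (adjusted p = 8.29e-05), -0.71 ± 0.14 (adjusted p = 0.0036997) and -1.36 ± 0.14 (adjusted p = 9.58e-07), and each stayed past the threshold under every alternative and without any single library.

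Hk2, the inducible hexokinase, did not pass in any tumour comparison, with differences of 0.20 ± 0.28, 0.11 ± 0.28 and -0.57 ± 0.28. Per kilobase of exon, Hk2 made up 60.99% ± 6.64 of the pair in wild-type male normal colon and 77.2% ± 3.74 in tumours (SD, n = 3). The shares were 65.2% ± 0.902 and 76.1% ± 6.16 in knock-in males and 75.4% ± 8.19 and 85.4% ± 2.71 in wild-type females, where normal and tumour libraries overlapped. In the male groups the libraries did not overlap. No test of the shares was run. The shares depend on the exon length used, which was 8532 bases for Hk1 and 5969 for Hk2. The longest transcripts have 4278 and 5513 bases, so which gene held the larger part is uncertain.

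Phosphofructokinase, the committing step, has 3 subunit genes. Pfkp, the platelet form, held 157, 163 and 197 CPM in wild-type male normal colon and 83.5, 83.5 and 79.5 in the tumours. In wild-type females normal colon held 259, 232 and 213 against 115, 118 and 111. Neither pair of groups overlapped, and Pfkp fell by 1.07 and 1.03 on the log2 scale (SE 0.14 in both, adjusted p = 2.68e-05 and 9.24e-06). In knock-in males the levels were 132, 167 and 157 against 88.7, 142 and 110.4 CPM, with overlap, and the difference was -0.42 ± 0.14 (adjusted p = 0.0371). The Pfkp call in knock-in males was lost without any 1 of knock-in male normal replicate 2 or 3 or knock-in male tumour replicate 1 or 3 (adjusted p up to 0.106), and with other groups left out of the fit, without the 3 libraries numbered 152 and above and with offsets for GC content and length alone or with the replicate block (up to 0.179). Pfkl, the liver form, lay at 92.1 to 208 CPM and passed in none of the 3 comparisons in the main fit.

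Gpi1, glucose-6-phosphate isomerase, held 402, 403 and 463 CPM in wild-type male normal colon and 302, 361 and 330.2 in the tumours. In wild-type females it held 425, 447 and 389 against 282, 291 and 297 CPM. The groups did not overlap in either sex, and the differences were -0.35 ± 0.11 (adjusted p = 0.0197) and -0.53 ± 0.11 (adjusted p = 6.53e-04). In knock-in males Gpi1 held 378, 375 and 440.0 against 304, 413 and 361 CPM, which overlapped (adjusted p = 0.354). The Gpi1 call in wild-type males was lost without any 1 of wild-type male normal replicate 3 or wild-type male tumour replicate 1 or 3 (adjusted p up to 0.1001).

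The aldolases moved apart in wild-type females. Aldoa, the aldolase of muscle and most tissues, fell from between 849.7 and 868 to between 541 and 567 CPM (-0.64 ± 0.18, adjusted p = 0.00665). Aldoc, known as the brain form, held 17.9, 12.8 and 15.6 CPM in normal colon and 28.1, 27.4 and 23.3 in tumours, without overlap (0.75 ± 0.18, adjusted p = 0.00156). In wild-type males Aldoc held 20.8, 24.1 and 16.5 against 27.8, 29.98 and 25.6 CPM and did not pass (0.43 ± 0.17, adjusted p = 0.0582). As counted, Aldoa was the member with the highest level per kilobase, at 257 CPM per kb on average over the 21 libraries. The levels of Gapdh and Eno1 are uncertain, as described below, so the place of Aldoa relative to them is too. Tpi1, triose phosphate isomerase, fell from between 360.0 and 395 to between 243 and 345 CPM in wild-type females (-0.40 ± 0.16, adjusted p = 0.0386). The Tpi1 call in wild-type females was lost without any 1 of wild-type female normal replicate 1 or 2 or wild-type female tumour replicate 2 or 3 (adjusted p up to 0.166), and with library totals in place of TMM and with the replicate block.

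The lower enzymes, from glyceraldehyde-3-phosphate dehydrogenase to pyruvate kinase, had calls in the male comparisons. Of the 5 tested, 2 were called higher in wild-type males, 1 was lower in knock-in males and none was called in wild-type females. Of all genes 16.5% were higher, 9.97% lower and 49.1% called in these comparisons, in that order. Pkm, pyruvate kinase of muscle and tumours, rose from between 782 and 962 to between 1126 and 1205 CPM in wild-type males (0.43 ± 0.14, adjusted p = 0.0272). Gapdh rose from between 24.3 and 26.97 to between 31.7 and 39.7 CPM (0.47 ± 0.15, adjusted p = 0.0229). Neither pair of groups overlapped, and both calls depended on the libraries in the fit. The Pkm call in wild-type males was lost without any 1 of wild-type male normal replicate 1 or 2 or wild-type male tumour replicate 1 or 2 or 3 (adjusted p up to 0.105), and with offsets for GC content and length alone or with the replicate block (up to 0.0718). The Gapdh call in wild-type males was lost without any 1 of wild-type male normal replicate 2 or 3 or wild-type male tumour replicate 3 (adjusted p up to 0.111), and with the replicate block and with offsets for GC content and length plus the replicate block (up to 0.0541). Eno2, the enolase of neurons and endocrine cells, fell from between 4.58 and 5.32 to between 1.48 and 2.86 CPM in knock-in males (-1.15 ± 0.37, adjusted p = 0.0341). The Eno2 call in knock-in males was lost without any 1 of knock-in male normal replicate 2 or 3 or knock-in male tumour replicate 2 or 3 (adjusted p up to 0.126), and with other groups left out of the fit and with offsets for GC content and length alone or with the replicate block (up to 0.0835). Pgk1, which makes the first ATP of the pathway, and Pgam1, phosphoglycerate mutase, lay at 205 to 371 and 100.0 to 147 CPM and passed in none of the 3 comparisons in the main fit.

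The levels of Gapdh and Eno1 were low for such enzymes. Gapdh ranked 25 of 36 per kilobase, with 7.24 CPM per kb, against 186 for Pkm and 189 for Ldha in the same pathway, and Eno1, the enolase of most tissues, ranked last. Eno1b, a near-identical copy of Eno1, held 4.37 to 11.003 CPM. Reads of genes with near-identical copies or pseudogenes can be lost or split in counting, and how the authors treated such reads is not given in the sources used here, so the levels of Gapdh and Eno1 are uncertain.

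Among the regulators, the enzymes that make and remove fructose-2,6-bisphosphate, the activator of phosphofructokinase, had opposite signs in wild-type males. Pfkfb4 held 22.3, 28.4 and 30.3 CPM in wild-type male normal colon and 12.9, 15.7 and 12.8 in the tumours. The values were 23.5, 26.4 and 32.9 against 16.8, 15.1 and 16.4 in knock-in males and 51.3, 79.6 and 49.4 against 28.5, 15.8 and 18.7 in wild-type females. Tumours were below normal colon without overlap in all 3 comparisons. The differences were -0.98 ± 0.22 (adjusted p = 0.001901), -0.78 ± 0.21 (adjusted p = 0.0161) and -1.52 ± 0.21 (adjusted p = 1.35e-05). The Pfkfb4 call in knock-in males was lost without knock-in male normal replicate 3 (adjusted p up to 0.08104), and with offsets for GC content and length alone or with the replicate block (up to 0.0763).

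Pfkfb3, the form with the strongest kinase activity, held 29.8, 35.6 and 11.5 CPM in wild-type male normal colon and 56.6, 113 and 60.6 in the tumours (1.56 ± 0.50, adjusted p = 0.0246). These groups did not overlap. The Pfkfb3 call in wild-type males was lost without any 1 of wild-type male normal replicate 1 or 3 or wild-type male tumour replicate 2 (adjusted p up to 0.107), and with other groups left out of the fit (up to 0.0507). In wild-type females the values were 27.2, 84.6 and 20.6 against 86.2, 69.8 and 66.7 CPM, with normal replicate 2 among the tumours, and the difference of 0.76 ± 0.49 did not pass (adjusted p = 0.217). Per kilobase, Pfkfb3 made up 19.7 to 46.2% of the pair in wild-type male normal colon and 73.9 to 82.3% in tumours. The shares were 38.9 to 45.7% and 59.2 to 68.7% in knock-in males and 21.2 to 40.7% and 66.1 to 74.03% in wild-type females. In each of the 3 settings the lowest tumour was above the highest normal library. With the exon lengths used, Pfkfb4 gave the larger part of the pair in normal colon and Pfkfb3 in tumours.

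**Figure D3:**
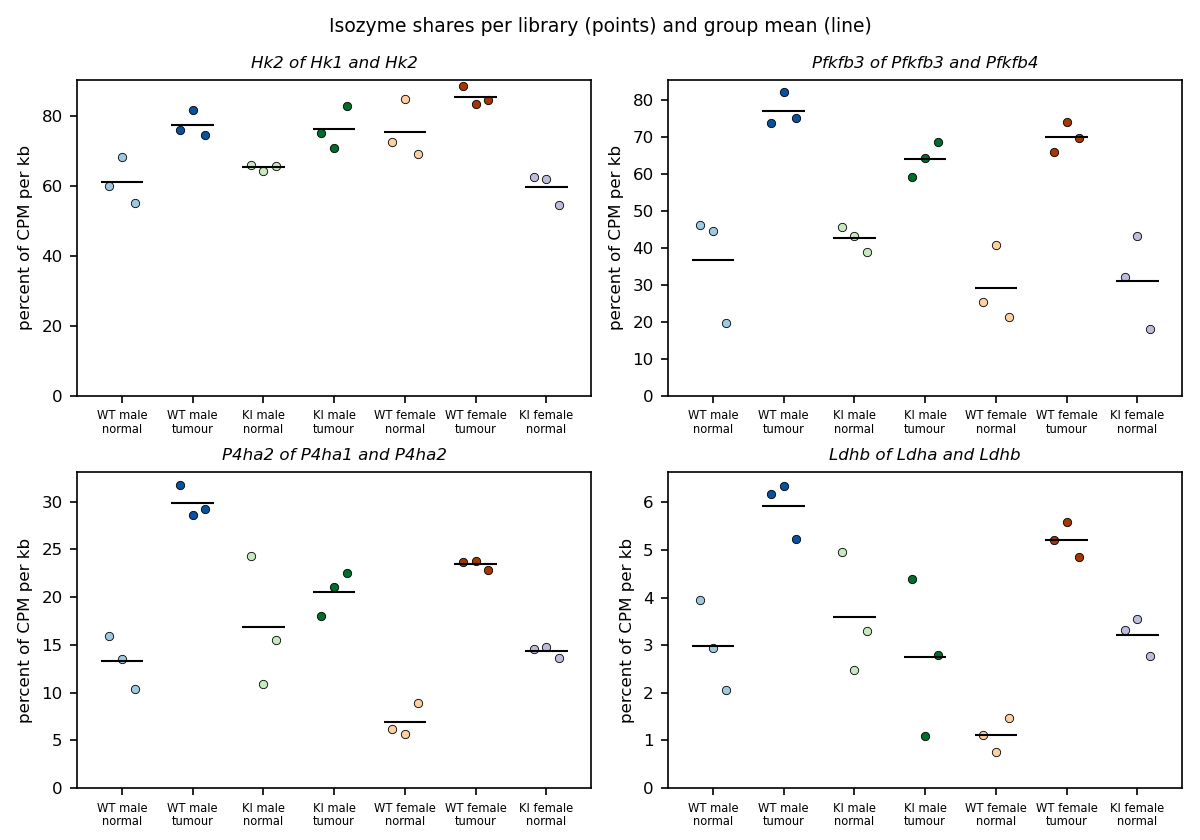
Share of 1 member of a pair in the summed CPM per kilobase of the pair (y axis, percent, from 0) in each library (points) of the 7 groups, with the group mean as a line. The Pfkfb3 share is 73.9 to 82.3% in WT male tumours against 19.7 to 46.2% in normal colon, and the P4ha2 and Ldhb shares are higher in both WT tumour groups while KI male tumours overlap their normal colon.

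Pyruvate can become lactate or enter mitochondria. Ldha, the subunit that favours lactate, held 793 to 821 CPM in wild-type female normal colon and 492 to 578 in tumours (-0.58 ± 0.14, adjusted p = 0.00199), and it was not called in the male comparisons (-0.34 ± 0.14 and 0.08 ± 0.14). Ldhb, the subunit of oxidative tissues, held 4.27, 2.93 and 5.57 CPM in wild-type female normal colon and 15.1, 13.8 and 13.2 in tumours. Every tumour was above every normal library, and the difference was 1.72 ± 0.32 (adjusted p = 2.21e-04). In wild-type males Ldhb held 11.2, 8.39 and 7.46 against 15.6, 17.2 and 12.3 CPM and did not pass (0.72 ± 0.30, adjusted p = 0.0706). Ldhb was 1.11% ± 0.357 of the pair per kilobase in wild-type female normal colon and 5.22% ± 0.366 in tumours, so Ldha remained the main subunit in all groups.

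Pdk1, the kinase that switches pyruvate dehydrogenase off, held 90.8, 86.3 and 105 CPM in wild-type male normal colon and 52.4, 67.8 and 61.8 in the tumours. It held 103, 94.6 and 108 against 58.9, 62.1 and 61.1 CPM in wild-type females. Tumours were lower without overlap in both sexes, with differences of -0.64 ± 0.17 (adjusted p = 0.00809) and -0.75 ± 0.17 (adjusted p = 0.00152). In knock-in males Pdk1 held 81.3, 97.7 and 72.01 against 60.5, 113 and 94.2 CPM, which overlapped (0.09 ± 0.17, adjusted p = 0.729).

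HIF and its sensors had 3 tested genes. Tumour against normal colon gave 0 calls among them for wild-type males, 1 for knock-in males and 1 for wild-type females. The shares of all genes called there were 35.7%, 20.4% and 49.1%, and 3 genes are too few to set against them. Hif1a, the oxygen-regulated subunit, whose control is mainly at the protein level, rose from between 153 and 258 to between 327 and 416 CPM in knock-in males (0.77 ± 0.24, adjusted p = 0.0322). The Hif1a call in knock-in males was lost without any 1 of knock-in male normal replicate 1 or 3 or knock-in male tumour replicate 1 or 2 or 3 (adjusted p up to 0.146), and with other groups left out of the fit, without the 3 libraries numbered 152 and above and with offsets for GC content and length alone or with the replicate block (up to 0.101). In the wild-type comparisons its differences were 0.01 ± 0.24 and 0.31 ± 0.24, and the test of unequal differences between genotypes gave 0.76 ± 0.34 (adjusted p = 0.177). Egln1, the main prolyl hydroxylase that marks HIF, was the steadiest of the 3, at 60.03 to 94.9 CPM in all libraries. Egln3, a hydroxylase that HIF itself induces, held 193, 188 and 144 CPM in wild-type female normal colon and 83.9, 97.6 and 92.97 in tumours, a fall without overlap (-0.94 ± 0.31, adjusted p = 0.0177). The Egln3 call in wild-type females was lost without any 1 of wild-type female normal replicate 1 or wild-type female tumour replicate 1 (adjusted p up to 0.0596). In wild-type males it held 107, 86.3 and 66.8 against 68.2, 178 and 112 CPM, with tumour replicate 2 the highest.

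Among the 10 other genes of the hypoxia response, Mif, Ndrg1 and P4ha2 rose in tumours of both wild-type sexes. Mif, a cytokine made by epithelial and immune cells, held 63.3, 63.1 and 54.2 CPM in wild-type male normal colon and 121, 104 and 115 in the tumours. In wild-type females it held 39.3, 44.5 and 50.02 against 102, 70.4 and 76.8. Both pairs of groups were without overlap, with differences of 0.91 ± 0.19 (adjusted p = 0.00114) and 0.90 ± 0.19 (adjusted p = 6.97e-04). In knock-in males Mif held 62.5, 45.96 and 59.5 against 43.01, 80.2 and 65.2 CPM, with overlap (0.17 ± 0.19, adjusted p = 0.543).

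Ndrg1, a stress-response protein induced by low oxygen and by differentiation, held 119.6, 117 and 106 CPM in wild-type male normal colon and 166, 217 and 166 in the tumours. In wild-type females it held 99.5, 72.2 and 83.9 against 124, 127 and 136. Tumours were above normal colon in both sexes (0.68 ± 0.16, adjusted p = 0.00286, and 0.59 ± 0.16, adjusted p = 0.00432). In knock-in males normal colon held 107, 109 and 110.4 CPM and tumours 75.9, 129 and 120.5, on both sides of the normal libraries (-0.01 ± 0.16, adjusted p = 0.985).

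P4ha1 and P4ha2 encode the catalytic subunits of collagen prolyl 4-hydroxylase. P4ha2 held 11.01, 9.59 and 6.76 CPM in wild-type male normal colon and 14.8, 18.9 and 16.8 in the tumours (0.86 ± 0.26, adjusted p = 0.0144). In wild-type females it held 8.41, 6.55 and 7.12 against 21.9, 13.5 and 16.5 (1.22 ± 0.26, adjusted p = 8.75e-04). The P4ha2 call in wild-type males was lost without wild-type male normal replicate 3 (adjusted p up to 0.0804). P4ha1 went the other way in wild-type females, from 83.99, 71.8 and 48.3 CPM in normal colon to 46.5, 28.4 and 36.9 in tumours (-0.88 ± 0.23, adjusted p = 0.00356). In wild-type males P4ha1 held 38.4, 40.3 and 38.4 against 20.9, 31.1 and 26.8 CPM, without overlap, and the difference did not pass (-0.59 ± 0.23, adjusted p = 0.05297). The P4ha2 share of the pair per kilobase was 13.3% ± 2.75 in wild-type male normal colon and 29.9% ± 1.697 in tumours, 6.91% ± 1.71 and 23.4% ± 0.531 in wild-type females, and 16.9% ± 6.796 and 20.5% ± 2.297 in knock-in males, where the libraries overlapped.

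Bnip3 and Bnip3l encode receptors for the removal of mitochondria. Bnip3 held 33.7, 22.8 and 28.4 CPM in wild-type male normal colon and 30.9, 65.5 and 39.1 in the tumours, with overlap (0.65 ± 0.21, adjusted p = 0.0204). The Bnip3 call in wild-type males was lost without any 1 of wild-type male normal replicate 2 or 3 or wild-type male tumour replicate 2 (adjusted p up to 0.183), and with other groups left out of the fit (up to 0.132). Bnip3l was called in none of the tumour comparisons. Falls in wild-type females that were not called in either male comparison came from Ankrd37, an ankyrin repeat gene induced by HIF (from between 8.92 and 27.1 to between 3.51 and 6.93 CPM, -1.61 ± 0.40, adjusted p = 0.00278), Higd1a, a small protein of the mitochondrial inner membrane (from between 31.96 and 59.4 to between 21.3 and 27.98 CPM, -0.85 ± 0.18, adjusted p = 8.23e-04), and Kdm3a, a histone demethylase (from between 130.1 and 167 to between 106 and 113 CPM, -0.40 ± 0.12, adjusted p = 0.00842). The Kdm3a call in wild-type females was lost without wild-type female normal replicate 1 (adjusted p up to 0.0746), and with library totals in place of TMM. The calls of Ankrd37, Higd1a, Kdm3a, P4ha1, Egln3, Ldha, Tpi1 and Ndrg1 in wild-type females were also absent without the libraries numbered 152 and above, which leaves 1 tumour in that comparison. Adm, the vessel-widening peptide adrenomedullin, lay at 3.64 to 15.7 CPM and passed in none.

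None of the members was called in the tests of unequal tumour differences. Between genotypes in males 0 of 35 passed, against 1.51% of all genes. An unadjusted p under 0.05 was reached by 10 members, against 4023 of all 15936 genes. DESeq2's Wald test called 1 member, against 763 genes higher and 444 lower. Between sexes in wild-type mice 0 passed, against 1.12% of all genes. There 6 members and 2198 of all genes had an unadjusted p under 0.05. DESeq2 called 1 member, against 438 genes higher and 125 lower. The count of the genotype test depended on single libraries. It was 5 members without knock-in male normal replicate 2, 2 without knock-in male tumour replicate 1 and 1 without knock-in male tumour replicate 3. Of all genes 181 were higher and 59 lower in the full fit. Without these libraries in turn the counts were 1174 and 930, 125 and 53, and 524 and 173. That a member was called in one tumour comparison and not in another was therefore not shown to be a difference between them.

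The direct comparison of knock-in with wild-type male tumours called 4 members higher and 4 lower (22.9%), against 14.5% of all genes (9.3% higher and 5.23% lower). It shares the wild-type tumours with the comparison against wild-type normal colon, so the 2 sets of values are not independent. Mif held 43.01 to 80.2 CPM in knock-in and 104 to 121 in wild-type tumours (-0.85 ± 0.19, adjusted p = 0.0101). Ndrg1 held 75.9 to 129 and 166 to 217 (-0.75 ± 0.16, adjusted p = 0.00866). For both genes every knock-in tumour was below every wild-type tumour, and the calls held without any single library. The Mif call between the male tumours was lost with offsets for GC content and length alone or with the replicate block (adjusted p up to 0.0964). The Ndrg1 call between the male tumours was lost with other groups left out of the fit (adjusted p up to 0.0592).

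Other measures also differed without overlap between these tumours. In knock-in and wild-type tumours the smooth muscle sum was 888 to 1006 and 192 to 754 CPM, the fibroblast sum 2787 to 4135 and 2208 to 2636 CPM, the sum of 6 macrophage genes 223 to 344 and 348 to 499.7 CPM and that of 6 enteric glia genes 5.44 to 10.5 and 3.78 to 4.97 CPM, and the Rn45s share was 6.95 to 8.23% and 9.302 to 13.1%. Their part in the member differences was not tested.

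The other calls between the male tumours had larger adjusted p-values. Ldhb held 10.005, 3.79 and 8.22 CPM in knock-in and 15.6, 17.2 and 12.3 in wild-type tumours (-1.03 ± 0.30, adjusted p = 0.0331). Aldoc held 13.95, 17.98 and 22.6 in knock-in and 27.8, 29.98 and 25.6 in wild-type tumours (-0.61 ± 0.17, adjusted p = 0.0291). Both were lower in the knock-in without overlap. Higher in the knock-in were Pfkp (0.47 ± 0.14, adjusted p = 0.03303), Pdk1 (0.56 ± 0.17, adjusted p = 0.0379) and Bnip3l, at 99.98, 121 and 95.1 against 80.9, 86.4 and 69.4 CPM (0.42 ± 0.12, adjusted p = 0.0305). Pdk1 held 60.5 to 113 CPM in knock-in and 52.35 to 67.8 in wild-type tumours, which overlapped. Pfkp held 88.75 to 142 and 79.5 to 83.5 CPM, without overlap. The Ldhb call between the male tumours was lost without any 1 of wild-type male tumour replicate 1 or 2 or 3 or knock-in male tumour replicate 2 (adjusted p up to 0.128), and with other groups left out of the fit, without the 3 libraries numbered 152 and above and with offsets for GC content and length alone or with the replicate block (up to 0.0916). The Aldoc call between the male tumours was lost without any 1 of wild-type male tumour replicate 1 or 2 or 3 or knock-in male tumour replicate 1 or 2 (adjusted p up to 0.0871), and with other groups left out of the fit and with offsets for GC content and length alone or with the replicate block (up to 0.0808). The Pfkp call between the male tumours was lost without any 1 of wild-type male tumour replicate 1 or 2 or 3 or knock-in male tumour replicate 2 (adjusted p up to 0.237), and with other groups left out of the fit, with the replicate block, without the 3 libraries numbered 152 and above and with offsets for GC content and length alone or with the replicate block (up to 0.173). The Pdk1 call between the male tumours was lost without any 1 of wild-type male tumour replicate 1 or 2 or 3 or knock-in male tumour replicate 2 or 3 (adjusted p up to 0.245), and with other groups left out of the fit, with the replicate block, without the 3 libraries numbered 152 and above and with offsets for GC content and length alone or with the replicate block (up to 0.167). The Bnip3l call between the male tumours was lost without any 1 of wild-type male tumour replicate 1 or 3 or knock-in male tumour replicate 1 or 2 (adjusted p up to 0.182), and with other groups left out of the fit and with offsets for GC content and length alone or with the replicate block (up to 0.4803). The number of called members was 2 without wild-type tumour replicate 1 or 3, and 3 without wild-type tumour replicate 2 or knock-in tumour replicate 2. Of all genes 1482 were higher and 833 lower in the full fit. Without these libraries in turn the counts were 416 and 319, 523 and 198, 694 and 378, and 318 and 111.

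Pfkm, the muscle subunit of phosphofructokinase, had the largest difference of all members between the male tumours, and it rested on 1 library. It held 9.94, 10.8 and 132 CPM in the knock-in tumours and 6.77, 7.57 and 7.09 in the wild-type tumours (2.83 ± 0.73, adjusted p = 0.0229). Replicate 3 of the knock-in tumours stood apart, since Pfkm reached at most 23.04 CPM in the other 20. The same library held a summed 2914 CPM of 7 skeletal muscle genes, where the other 20 held 3.16 to 51.2. Genes of muscle glycolysis were high there as well, with Pygm, muscle glycogen phosphorylase, at 296 CPM, Pgam2, muscle phosphoglycerate mutase, at 40.3 CPM and Aldoa at 1032 CPM. Without this library the Pfkm difference was 0.55 (adjusted p = 0.110). The Pfkm call between the male tumours was lost without any 1 of wild-type male tumour replicate 1 or 2 or 3 or knock-in male tumour replicate 3 (adjusted p up to 0.1102), and with other groups left out of the fit, with the replicate block, without the 3 libraries numbered 152 and above and with offsets for GC content and length plus the replicate block (up to 0.222). In the tumour comparison of knock-in males Pfkm went from 1.68 with the library to -0.60 without it, and Aldoa from -0.02 to -0.35, none of them past the threshold. In the wild-type comparisons, which hold no such library, Pfkm differed by -0.99 ± 0.72 and -0.78 ± 0.75 and did not pass. With other groups, and so this library, left out of the fit, both differences passed (adjusted p = 0.0140 in males and 0.0353 in females).

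**Figure D4:**
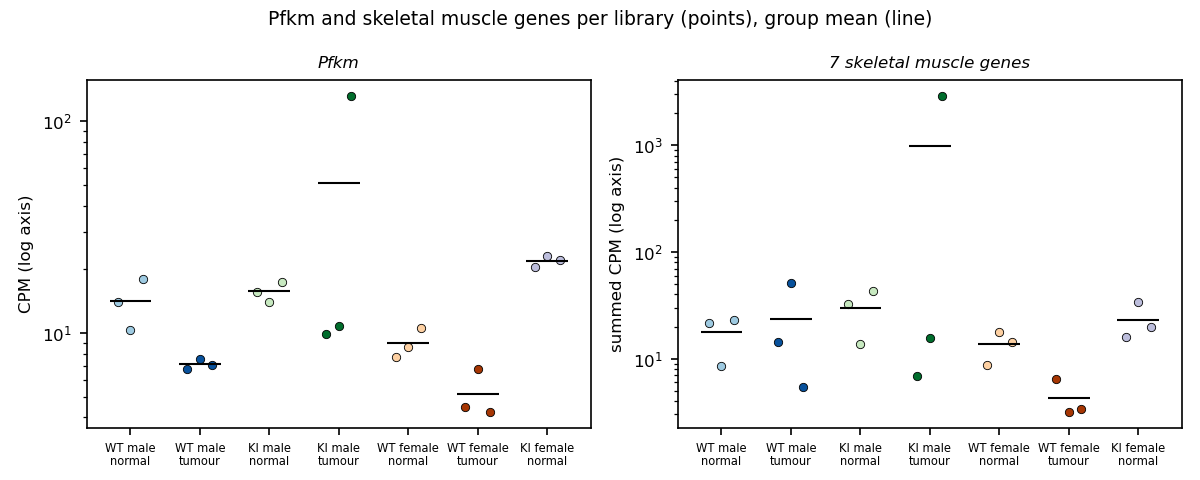
Pfkm (left) and the summed level of 7 skeletal muscle genes (right) in each library, in CPM on log axes, with the group mean as a line. Replicate 3 of the KI male tumours stands apart from the other 20 libraries in both panels, at 132 and 2914 CPM.

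In normal colon, calls among the members came from comparisons with wild-type females. Between knock-in and wild-type male normal colon 0 of 35 members passed, against 0.0126% of all genes. No member had an unadjusted p under 0.05, against 532 of all 15936 genes. DESeq2 called 0 members, against 2 genes higher and 4 lower. Between knock-in and wild-type female normal colon 5 members passed, 1 higher and 4 lower (14.3%), against 16% of all genes (8.97% higher and 7% lower). Between wild-type females and males 6 were higher and 1 was lower in females (20%), against 15.9% of all genes (5.74% higher and 10.2% lower). These 2 comparisons share the wild-type female normal libraries, as does the tumour comparison of wild-type females, and those libraries also had the lowest sums of 7 fibroblast genes (1161 to 1409 CPM, against 2432 to 2707 in wild-type males and 2247 to 2827 in knock-in females) and of 6 endothelial genes (53.4 to 84.4, against 121 to 165 and 124 to 142). The smooth muscle sum was 1984 to 4593 CPM in wild-type females against 6879 to 9723 in knock-in females, without overlap, as were the enteric glia (7.25 to 10.8 against 12.4 to 24.3) and epithelial sums (9590.0 to 10540.0 against 9252 to 9581). The Rn45s share was 2.84 to 3.18% in wild-type females, 4.896 to 8.26% in wild-type males and 4.85 to 5.96% in knock-in females. The part of these measures in the member differences was not tested. Replicate a of knock-in female normal colon held the highest value of its group for 26 of the 35 members (74.3%), against 33.4% of all tested genes.

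Hk2 was called in both of these comparisons. It held 454, 932 and 414 CPM in wild-type female normal colon, 193, 283 and 226 in wild-type males and 271, 297 and 216 in knock-in females. All 3 wild-type female libraries were above all libraries of the other 2 groups, and replicate 2 stood highest. The sex difference was 1.36 ± 0.28 (adjusted p = 0.00395) and the genotype difference -1.20 ± 0.28 (adjusted p = 0.00884). The Hk2 call between genotypes was lost without wild-type female normal replicate 2 (adjusted p up to 0.0643). The test of unequal genotype differences between the sexes gave -1.36 ± 0.39 for Hk2 (adjusted p = 0.0747). In that test 0 of 35 members passed, against 2.54% of all genes. It had 8 members and 2828 of all 15936 genes at an unadjusted p under 0.05. DESeq2 called 2 members, against 637 genes higher and 264 lower.

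Pfkfb4 held 51.3, 79.6 and 49.4 CPM in wild-type female normal colon, 22.3, 28.4 and 30.3 in wild-type males and 36.3, 30.5 and 35.4 in knock-in females (1.15 ± 0.21, adjusted p = 0.00131, for sex and -0.82 ± 0.20, adjusted p = 0.0125, for genotype). P4ha1 held 83.99, 71.8 and 48.3 CPM, 38.4, 40.3 and 38.4 CPM, and 33.7, 36.3 and 34.6 CPM in the same order of groups (0.81 ± 0.22, adjusted p = 0.0207, and -0.97 ± 0.22, adjusted p = 0.00786). Pfkp held 259, 232 and 213 CPM, 157, 163 and 197 CPM, and 164, 175 and 172 CPM (0.45 ± 0.14, adjusted p = 0.0334, and -0.46 ± 0.14, adjusted p = 0.0274). All 3 genes were highest in wild-type females, without overlap with either other group. The Pfkfb4 call between genotypes was lost without any 1 of wild-type female normal replicate 2 or knock-in female normal replicate a (adjusted p up to 0.09698). The P4ha1 call between sexes was lost without any 1 of wild-type male normal replicate 1 or 2 or wild-type female normal replicate 1 or 2 (adjusted p up to 0.116), and with offsets for GC content and length plus the replicate block (up to 0.0883). The P4ha1 call between genotypes was lost without wild-type female normal replicate 1 (adjusted p up to 0.0549). The Pfkp call between sexes was lost without any 1 of wild-type male normal replicate 1 or 2 or wild-type female normal replicate 1 or 2 (adjusted p up to 0.152), and with library totals in place of TMM, with other groups left out of the fit, without the 3 libraries numbered 152 and above and with offsets for GC content and length plus the replicate block (up to 0.0670). The Pfkp call between genotypes was lost without any 1 of wild-type female normal replicate 1 or 2 or knock-in female normal replicate 1 or a or b (adjusted p up to 0.126), and with library totals in place of TMM (up to 0.0531).

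Ldhb had the reverse order, with 4.27, 2.93 and 5.57 CPM in wild-type female normal colon, 11.2, 8.39 and 7.46 in wild-type males and 11.7, 13.6 and 9.26 in knock-in females (-1.09 ± 0.32, adjusted p = 0.02498, for sex and 1.44 ± 0.32, adjusted p = 0.00581, for genotype). Egln3 held 193, 188 and 144 CPM in wild-type females and 107, 86.3 and 66.8 in wild-type males (1.01 ± 0.31, adjusted p = 0.0332). Higd1a held 31.96, 59.4 and 39.95 and 27.4, 25.8 and 31.3 CPM (0.63 ± 0.18, adjusted p = 0.0234). For each of these genes the 3 female libraries stood on one side of the 3 male ones. The Ldhb call between sexes was lost without any 1 of wild-type male normal replicate 1 or wild-type female normal replicate 1 or 2 (adjusted p up to 0.121), and with other groups left out of the fit (up to 0.0507). The Egln3 call between sexes was lost without any 1 of wild-type male normal replicate 1 or 2 or 3 or wild-type female normal replicate 1 or 2 (adjusted p up to 0.105), and with no low-count filter and without the 3 libraries numbered 152 and above (up to 0.0627). The Higd1a call between sexes was lost without any 1 of wild-type male normal replicate 1 or 2 or wild-type female normal replicate 2 (adjusted p up to 0.185), and with other groups left out of the fit and with the replicate block (up to 0.106). The sex comparison called 2 members without wild-type male normal replicate 1, 4 without replicate 2 of that group and 3 without wild-type female normal replicate 1 or 2. Of all genes 915 were higher and 1619 lower in the full fit. Without these libraries in turn the counts were 208 and 930, 409 and 1157, 379 and 972, and 229 and 808. The genotype comparison called 3 without wild-type female normal replicate 1, 2 without replicate 2 of that group and 3 without knock-in female normal replicate a. Of all genes 1429 were higher and 1116 lower in the full fit. Without these libraries in turn the counts were 768 and 435, 704 and 353, and 712 and 310. With library totals in place of TMM the genotype split was 3 higher and 3 lower, and the sex split 5 higher and 3 lower. Of all genes 1795 were then higher and 672 lower for genotype, and 538 and 1975 for sex.

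**Figure D5:**
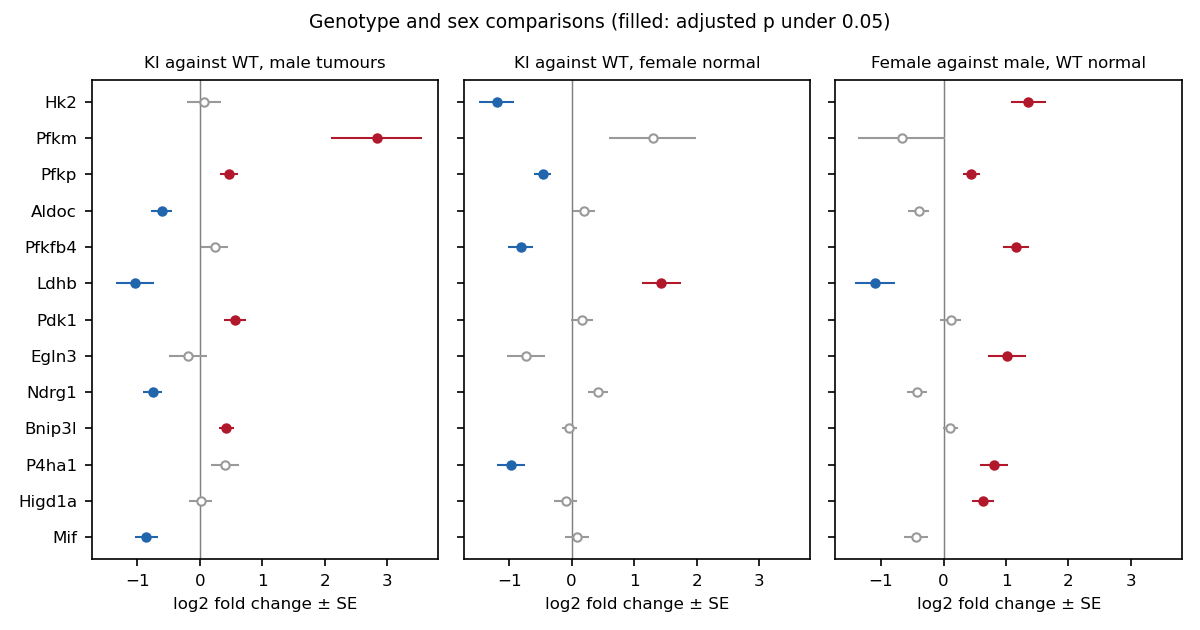
Log2 fold change (x axis, points with SE bars) of the 13 members called in at least 1 of 3 comparisons, KI against WT in male tumours, KI against WT in female normal colon, and female against male in WT normal colon, 3 libraries a group. Filled points passed an adjusted p of 0.05. Hk2, Pfkp, Pfkfb4 and P4ha1 are red in the sex panel and blue in the female genotype panel, which share the WT female normal libraries.

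The remaining sex comparisons called no member. Between wild-type female and male tumours 0 of 35 passed, against 0.86% of all genes. An unadjusted p under 0.05 was found for 10 members and 3350 of all 15936 genes. DESeq2 called 3 members (Hif1a, Pfkp and Ndrg1), against 322 genes higher and 459 lower. Between knock-in female and male normal colon 0 passed, against 0.584% of all genes. There 6 members and 2433 of all genes had an unadjusted p under 0.05. DESeq2 called 0 members, against 209 genes higher and 374 lower. In the tumours Hif1a differed by 0.85 ± 0.24 (adjusted p = 0.0742), with 435, 439 and 446 CPM in females and 229, 324 and 182 in males.

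Ranked per kilobase of exon over all libraries, Aldoa (257 CPM per kb), Ldha (189) and Pkm (186) led the members, followed by Pgk1 (117) and Tpi1 (113). The places of Gapdh and Eno1 in this order are uncertain, as described above. The order also depends on the exon length used, 3310 bases for Ldha and 5001 for Pkm. Their longest transcripts have 1815 and 2432 bases. Over all libraries the ranges of Ldha (139 to 248 CPM per kb) and Pkm (143 to 241) overlapped, but their order changed between groups. In wild-type female normal colon Ldha was at 243 ± 4.47 and Pkm at 169 ± 11.1 (SD, n = 3). In wild-type male tumours they were at 152 ± 9.47 and 233 ± 7.89. The ranges of Pgk1 (91.2 to 165) and Tpi1 (81 to 144) also overlapped. Hk2 was at 55.4 CPM per kb and Hk1 at 20.8. P4ha2 (1.91), Eno2 (0.709) and Slc2a3 (0.5601) were the lowest of the tested members.

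Genes next to these in metabolism were examined as lists, to be read against the 16.5% of all genes that were higher and 19.3% lower in wild-type male, 10.4% and 9.97% in knock-in male, and 25% and 24% in wild-type female tumours. Of 18 tested further isozymes and transporters of glycolysis, 2 were higher and 8 lower in wild-type male tumours, 1 and 1 in knock-in male tumours, and 3 and 8 in wild-type female tumours, with median differences of -0.52, -0.34 and -0.64. Slc16a1, which encodes MCT1, the transporter of lactate and butyrate, held 279.5, 219 and 536 CPM in wild-type male normal colon and 61.5, 62.3 and 70.1 in the tumours (-2.41 ± 0.31, adjusted p = 2.86e-05). It held 293, 304 and 381 against 90.2, 101 and 78.9 in wild-type females (-1.85 ± 0.30, adjusted p = 7.58e-05) and 178, 249.7 and 164 against 119, 228 and 126 in knock-in males (-0.32 ± 0.29, adjusted p = 0.446). The monocarboxylate transporter genes Slc16a3 and Slc16a1 therefore moved in opposite directions in both wild-type sexes. Adpgk, an ADP-dependent glucokinase, differed by 0.57 ± 0.14 and 0.71 ± 0.14 in wild-type males and females, both past the threshold. Slc16a7, which encodes MCT2, differed by -1.60 ± 0.35 and -1.47 ± 0.34, also past it.

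The 13 genes for the entry of pyruvate into mitochondria fell where they were called in wild-type tumours, 6 in males and 8 in females with none higher, while knock-in male tumours had 1 higher and 1 lower. Mpc1 and Mpc2, which form the mitochondrial pyruvate carrier, differed by -0.94 ± 0.22 and -0.88 ± 0.15 in wild-type males (adjusted p = 0.00342 and 2.96e-04) and by -0.98 ± 0.22 and -0.66 ± 0.15 in wild-type females. The Mpc1 call in wild-type females was lost without the libraries numbered 152 and above (adjusted p = 0.0532). Pdha1, a subunit of pyruvate dehydrogenase, held 148 to 169.8 CPM in wild-type male normal colon and 100.5 to 113 in the tumours (-0.54 ± 0.09, adjusted p = 3.24e-04). Pdpr, a regulator of pyruvate dehydrogenase phosphatase, differed by -0.62 ± 0.13 there. Between knock-in and wild-type male tumours 6 of the 13 were higher in the knock-in and none lower, against 9.3% and 5.23% of all genes. Over the alternatives the number higher ran from 0 to 6.

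Of 7 tested gluconeogenesis genes, 5 were lower in wild-type male, 2 in knock-in male and 3 in wild-type female tumours, and none was higher. Pck1, which makes phosphoenolpyruvate from oxaloacetate, went from between 59.05 and 158 to between 4.37 and 15.7 CPM in wild-type males (-3.34 ± 0.56, adjusted p = 3.34e-04) and from between 67.2 and 145 to between 1.49 and 6.78 in wild-type females (-4.61 ± 0.61, adjusted p = 1.61e-05). Pcx, pyruvate carboxylase, was lower in all 3 comparisons (-1.64 ± 0.15, -1.03 ± 0.14 and -2.32 ± 0.15). In wild-type males Fbp2, a fructose bisphosphatase, and Pck2, the mitochondrial counterpart of Pck1, differed by -0.72 ± 0.16 and -0.57 ± 0.13 (adjusted p = 0.00176 and 0.00294). The Pck1 difference in knock-in males was -1.81 ± 0.51 (adjusted p = 0.0215). The Pck1 call in knock-in males was lost without any 1 of knock-in male normal replicate 3 or knock-in male tumour replicate 2 or 3 (adjusted p up to 0.0782), and without the 3 libraries numbered 152 and above and with offsets for GC content and length plus the replicate block (up to 0.0739).

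The pentose phosphate genes, which draw glucose-6-phosphate off glycolysis to make NADPH and ribose, had rises and no falls in the 3 tumour comparisons. Of 8 tested, 3 were higher in wild-type male, 2 in knock-in male and 4 in wild-type female tumours, where 16.5%, 10.4% and 25% of all genes were higher. Over the alternatives these numbers ran from 1 to 3, 0 to 2 and 1 to 6, and at most 1 gene was lower, in knock-in males. G6pdx, its first enzyme, held 92.2, 83.2 and 85.9 CPM in wild-type male normal colon and 125, 136 and 115 in the tumours. Its differences were 0.53 ± 0.14, 0.64 ± 0.14 and 0.51 ± 0.14 (adjusted p = 0.006804, 0.00538 and 0.005205), the same sign in all 3 comparisons. The G6pdx call in knock-in males was lost with other groups left out of the fit (adjusted p up to 0.0583). In wild-type females the calls of G6pdx and Tkt were lost without the libraries numbered 152 and above (adjusted p = 0.0566 and 0.0527). Tkt, transketolase, rose in both wild-type sexes (0.27 ± 0.09 and 0.33 ± 0.09), Pgd, the next dehydrogenase, in wild-type males (0.31 ± 0.11), and H6pd, its counterpart in the endoplasmic reticulum, in wild-type females (1.66 ± 0.21). Of 10 glycogen genes none was higher, and 4, 1 and 4 were lower in the 3 comparisons. Those lower in wild-type males included Ugp2 (-0.88 ± 0.19), Gbe1 (-0.52 ± 0.15) and Pygb (-0.38 ± 0.14), which make or break down glycogen. The Tkt call in wild-type males was lost without any 1 of wild-type male normal replicate 1 or 3 or wild-type male tumour replicate 1 or 2 or 3 (adjusted p up to 0.105), and with no low-count filter, with other groups left out of the fit and with offsets for GC content and length alone or with the replicate block (up to 0.09901). The Pgd call in wild-type males was lost without any 1 of wild-type male normal replicate 1 or 2 or 3 or wild-type male tumour replicate 1 or 2 (adjusted p up to 0.213), and with no low-count filter, with other groups left out of the fit and without the 3 libraries numbered 152 and above (up to 0.0990). The Gbe1 call in wild-type males was lost without wild-type male tumour replicate 3 (adjusted p up to 0.0698). The Pygb call in wild-type males was lost without any 1 of wild-type male normal replicate 3 or wild-type male tumour replicate 2 or 3 (adjusted p up to 0.237), and with library totals in place of TMM, with no low-count filter, with other groups left out of the fit and without the 3 libraries numbered 152 and above (up to 0.0693).

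Among 8 further regulators of HIF, 1 was higher and 3 lower in wild-type male, 0 and 3 in knock-in male, and 1 and 4 in wild-type female tumours. Epas1, which encodes HIF-2α, held 254, 268 and 335 CPM in wild-type male normal colon and 109.8, 119 and 129 in the tumours. It was lower in tumours in all 3 comparisons (-1.26 ± 0.17, -0.69 ± 0.17 and -1.36 ± 0.17, adjusted p = 3.66e-05, 0.00966 and 4.94e-06). Hif3a, a HIF subunit that can restrain the others, was lower as well (-1.10 ± 0.32, -1.27 ± 0.30 and -1.82 ± 0.32), while Arnt2, a partner of HIF subunits in neurons, rose in wild-type males and females (2.23 ± 0.60 and 4.76 ± 0.73). Cited2, a competitor of HIF for its coactivator, was lower in wild-type males and females (-0.67 ± 0.18 and -0.51 ± 0.18). The Epas1 call in knock-in males was lost without knock-in male normal replicate 3 (adjusted p up to 0.0517). The Hif3a call in knock-in males was lost without knock-in male normal replicate 3 (adjusted p up to 0.0713), and with other groups left out of the fit and without the 3 libraries numbered 152 and above (up to 0.0877). The Hif3a call in wild-type males was lost without wild-type male tumour replicate 1 (adjusted p up to 0.0826). The Cited2 call in wild-type females was lost without any 1 of wild-type female normal replicate 1 or wild-type female tumour replicate 1 (adjusted p up to 0.149), and with library totals in place of TMM and with other groups left out of the fit (up to 0.0882).

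Of 28 further HIF target genes, 3 were higher and 6 lower in wild-type male tumours, 4 and 1 in knock-in male tumours, and 8 and 9 in wild-type female tumours, with medians of 0.04, 0.09 and -0.22. Hmox1, haem oxygenase, which also answers to oxidative stress and iron, held 9.78, 14.7 and 5.77 CPM in wild-type male normal colon and 55.6, 139 and 59.4 in the tumours. It rose in all 3 comparisons (3.04 ± 0.43, 1.74 ± 0.43 and 3.18 ± 0.46). Plod2, a collagen lysyl hydroxylase, went down in all 3 (-0.85 ± 0.17, -0.51 ± 0.16 and -1.07 ± 0.17). Aldh1a1, a retinal dehydrogenase, and Zfp395, a zinc finger protein, fell in wild-type males (-2.92 ± 0.40 and -1.64 ± 0.31) and females (-3.53 ± 0.41 and -0.98 ± 0.30). The Plod2 call in knock-in males was lost without any 1 of knock-in male normal replicate 1 or 2 or knock-in male tumour replicate 3 (adjusted p up to 0.137), and with library totals in place of TMM, with other groups left out of the fit and without the 3 libraries numbered 152 and above (up to 0.1595). The Zfp395 call in wild-type females was lost without any 1 of wild-type female normal replicate 1 or wild-type female tumour replicate 1 (adjusted p up to 0.0687).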

How the data were processed

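The authors deposited a table of raw read counts per gene for each library. Trimmomatic, HISAT2, featureCounts, DESeq2 and the genome build mm10 are named per the submitters' processing notes. Their versions, the annotation, the strand setting and the treatment of reads with several matches are not given in the sources used here. The authors' own table of comparisons was not used.

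Columns of the deposited counts were tied to samples by name. A pair of columns carried the same heading and was used as unnumbered replicates a and b of knock-in female normal colon. No column of per-sample values was left unused. Genes were filtered by group with filterByExpr, which left 15936 of 24062, and 1 quasi-likelihood model with a coefficient for each of the 7 groups was fitted to all 21 libraries (R 4.3.3, edgeR 4.0.16, TMM factors). From it came 9 pair comparisons and 3 interactions, each adjusted over all tested genes by the Benjamini-Hochberg method with a threshold of 0.05. Levels are CPM, counts scaled to library size with TMM factors. Levels per kilobase divide these by exon length, so they compare genes, and were tested nowhere. The fits were tested on simulated data.

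The alternatives were DESeq2 1.42.0 size factors, DESeq2's Wald test, library totals, no filter on low counts, a fit without the groups not compared, the replicate number as a block, each library left out in turn, and the libraries numbered 152 and above left out. Offsets for GC content and length, alone and with the block, were added after the data had been seen. The labels do not say what a replicate number marks. In the tumour comparison of wild-type males the deviations of same-numbered libraries from their group means correlated in all 3 pairs (r = 0.169, 0.174 and 0.215 across genes), which meets the mark set for pairing (above 0.1 in every pair). The printed values still come from the model without a block, and the block is named where it ends a call. In the other 6 comparisons that could be checked at least 1 pair was not above 0.1.

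The members and the related gene lists were chosen with earlier results of these data known. Members called in at least 2 tumour comparisons, or in any genotype, sex or interaction comparison, could be shown library by library. From each related list up to 4 genes with the smallest adjusted p in wild-type males were to be given with values, and any other could be named. Values of some genes of the related lists are not reported here.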

Additional observations from a re-analysis of the deposited data

How the results depend on the processing

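The 57 calls of a member in a comparison kept their direction in all alternatives run. Of these, 27 stayed past the threshold in each alternative other than leaving out 1 library, and 29 stayed past it in each fit that left out 1 library. Counts of called members moved by over 1.5 times in the following cases. With the other groups left out of the fit, the count was 2 (in place of 5) for knock-in male tumours against normal colon, 1 (in place of 8) between the male tumours, 4 (in place of 7) between the sexes in wild-type normal colon, and 3 (in place of 0) between the sexes in wild-type tumours. The calls over all genes moved in the same directions. They went from 1657 higher and 1589 lower to 221 and 503, and from 1482 and 833 to 745 and 693, in the first 2 comparisons. In the sex comparisons they went from 915 and 1619 to 569 and 1054, and from 64 and 73 to 557 and 609. Without the libraries numbered 152 and above the first 2 of these were 3 and 4, and the interaction of genotype and sex in normal colon gave 1. With offsets for GC content and length the same 2 were 3 and 2, and with the offsets and the replicate block 2 and 1. Of all genes 1205 were higher and 1178 lower, and 806 and 324, with the offsets. With the block added these were 691 and 1102, and 450 and 260. DESeq2's Wald test called 3 between the sexes in wild-type tumours and 1, 1 and 2 in the interactions of genotype with tumour, sex with tumour and genotype with sex, where the quasi-likelihood test called 0. Library totals gave 1 in the last of these. DESeq2's test also called more of all genes in each of these comparisons, with the counts given above.

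With the replicate block alone, the count between the sexes in wild-type tumours was 1 (Hif1a), and no other count moved by over 1.5 times. Of all genes 61 were higher and 62 lower between those tumours. Of calls made without it, the block ended those the text names, and it added Hif1a between the male tumours. Comparisons with knock-in female normal colon had no block, since 2 of its libraries carry no number.

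Leaving out 1 library gave 8 to 12 called members for wild-type male, 1 to 4 for knock-in male and 16 to 21 for wild-type female tumours against normal colon, and 2 to 6 between the male tumours. It gave 2 to 5 between genotypes in female normal colon, 2 to 8 between sexes in wild-type normal colon, 0 to 5 for the interaction of genotype with tumour and 0 to 1 for that of genotype with sex. The remaining 4 comparisons stayed at 0. The counts of all genes moved in these fits as well, as given above for single fits. The 1 call in the genotype and sex interaction came without wild-type female normal replicate 3, where 375 of all genes were higher and 239 lower. With library totals the median difference of all genes was 0.15 in the tumour comparison of wild-type females and 0.13 in the interaction of sex with tumour, where TMM gave 0.01 and 0.03, so differences there are relative to that choice. Low counts limit the precision for Slc2a3 and Eno2, and Eno1 could not be tested at this depth.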
